A study of Mus musculus with 8 samples.

Results

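The Dlg, Shank and Homer families encode the scaffold proteins of the postsynaptic density, and their transcripts were read from bulk RNA sequencing of whole mouse brain. The 10 genes (Dlg1 to Dlg4, Shank1 to Shank3 and Homer1 to Homer3) were taken by symbol from a table of 24343 genes, and they account for 29 of its 34535 RefSeq transcripts. The brains came from 3 C57BL/6NCrl mice 56 to 62 days of age, and each brain was read in several libraries (3 for mouse 1, 3 for mouse 2, 2 for mouse 3). The labels give a single inbred strain, no further genotype, no drug treatment and no second condition, so the only groups are the individual mice. What the library numbers of a mouse stand for is not given in the sources used here, and a mouse's libraries are not separate animals.

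At an excitatory synapse, the density behind the receiving membrane is built in layers. Dlg proteins are membrane-associated guanylate kinases whose PDZ domains hold NMDA receptors, potassium channels and neuroligins near the membrane. Shank proteins form the layer beneath and are tied to the Dlg layer by guanylate kinase-associated proteins (the Dlgap family), whereas Homer proteins bind Shank, group I metabotropic glutamate receptors and inositol trisphosphate receptors. Homer1 also gives a short form, Homer1a, which lacks the coiled coil through which the long forms assemble and whose transcript is induced by neuronal activity.

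Levels are given in FPKM, fragments scaled to transcript length and library size, so that they can be compared between genes, and a gene's value is the sum over its transcripts. Each mean is over 3 mice, after averaging the libraries of each mouse, with the SD between mice. In bulk tissue, fewer cells of a type and less RNA per cell cannot be told apart. Snap25 of neurons, Gja1 of astrocytes, Mbp of oligodendrocytes and Csf1r of microglia were present at 1056 ± 56.3, 90.5 ± 19.9, 1925 ± 1074 and 16.9 ± 0.74 FPKM (SD, n = 3 mice), so the labelled tissue carried its defining markers. The 8 libraries held 1.31 to 2.02 gigabases on transcripts, and the summed FPKM of all genes was 295541 to 345572 in the libraries of mice 1 and 2 and 384885 and 409889 in mouse 3. Deviations of log2(FPKM + 1) from the gene means correlated with transcript length by Spearman's rho of 0.18 to 0.50 across genes in the libraries of mice 1 and 2 and of -0.36 and -0.57 in those of mouse 3.

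The sequences that set the transcripts of Homer1, Dlg4 and Homer2 apart are shown first, because the transcript values below rest on them. Of the 29 transcripts, 28 matched a GENCODE vM21 transcript on GRCm38 by their RefSeq identifier. The short and the long Homer1 transcript share their first 527 coding bases. The short form then reads on past base 93356079 of chromosome 13, where the long form leaves its exon, through 34 coding bases that end in a stop codon (chr13:93356080-93356113, plus strand). The long form instead takes up an exon of 36 bases (chr13:93386345-93386380, plus strand). Dlg4 transcript NM_007864 holds 9 coding bases that NM_001109752 lacks (chr11:70030595-70030603, plus strand), and Homer2 transcript NM_011983 holds 33 that NM_001164086 lacks (chr7:81618683-81618715, minus strand). Capitals mark the coding bases that the named transcript alone holds among those compared, and lower case marks bases shared with a compared transcript. For Homer1 the comparison also took in NM_001284189, which lacks the exon of 36 bases. The lower-case bases after the capitals of NM_147176 are shared with NM_001284189 and not with the short form.
Homer1 short form NM_011982: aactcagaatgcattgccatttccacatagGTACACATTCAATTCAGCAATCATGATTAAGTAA
Homer1 long form NM_147176: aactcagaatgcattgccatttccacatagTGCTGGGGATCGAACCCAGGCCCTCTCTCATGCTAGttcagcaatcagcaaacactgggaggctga
Dlg4 NM_007864: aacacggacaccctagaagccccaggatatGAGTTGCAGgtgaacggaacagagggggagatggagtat
Homer2 NM_011983: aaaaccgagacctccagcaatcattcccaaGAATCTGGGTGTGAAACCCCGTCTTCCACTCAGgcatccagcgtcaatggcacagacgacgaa

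Dlg1 transcripts start at 3 positions, and the 250 bases before the outermost and the innermost start are shown. NM_001252435 starts at base 31663443 of chromosome 16 and stood at 10.2 ± 1.84 FPKM (SD, n = 3 mice), and NM_001252436 starts at base 31754350, inside an intron of the longer transcripts, and stood at 13.1 ± 0.85 FPKM. Single libraries ranged from 4.76 to 13.0 FPKM for NM_001252435 and from 11.9 to 14.2 FPKM for NM_001252436. The 4 transcripts that start at base 31663935 summed to 14.3 ± 1.79 FPKM. G and C made up 46.0% of the bases before the outermost start and 30.8% before the innermost, and 1.78% of the 32851 RefSeq windows of this length in the promoter table (GRCm38.p6) had a lower GC content than the latter. The letters TATAAA, searched on both strands, occur before the innermost start (capitals, on the opposite strand, 83 bases before the start) and not before the outermost, and 12.4% of all windows hold them. The match is a description of these letters only.
Dlg1 outermost start, chr16:31663193-31663442, plus strand: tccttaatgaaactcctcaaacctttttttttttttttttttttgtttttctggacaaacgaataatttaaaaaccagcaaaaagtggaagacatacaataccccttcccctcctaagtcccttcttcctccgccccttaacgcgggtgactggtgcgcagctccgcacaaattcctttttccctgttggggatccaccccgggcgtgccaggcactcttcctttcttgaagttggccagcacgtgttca
Dlg1 innermost start, chr16:31754100-31754349, plus strand: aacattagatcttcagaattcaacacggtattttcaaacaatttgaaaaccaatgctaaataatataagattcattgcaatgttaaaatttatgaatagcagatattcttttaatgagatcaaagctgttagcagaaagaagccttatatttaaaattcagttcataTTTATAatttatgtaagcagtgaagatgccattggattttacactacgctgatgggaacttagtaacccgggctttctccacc

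Dlg4, which encodes PSD-95, was the highest of the 10 genes at 169 ± 20.2 FPKM (SD, n = 3 mice) and ranked 304th of the 13001 genes whose mean over mice reached 1 FPKM. It was followed by Dlg2 (60.9 ± 5.37 FPKM), Shank1 (42.8 ± 10.04), Dlg1 (37.5 ± 2.85), Dlg3 (27.7 ± 6.49), Shank3 (25.2 ± 4.87), Homer1 (22.8 ± 4.21), Shank2 (18.8 ± 2.19), Homer3 (11.1 ± 1.26) and Homer2 (6.47 ± 1.23). All 10 passed the minimum of 1 FPKM, and Homer2 ranked 7759th. Within the families in FPKM, Dlg4 held 57.2 ± 2.58% of the Dlg sum, Homer1 56.2 ± 7.77% of the Homer sum and Shank1 49.02 ± 1.85% of the Shank sum (SD, n = 3 mice). The Dlg genes summed to 296 ± 21.6 FPKM, the Shank genes to 86.7 ± 17.0 and the Homer genes to 40.3 ± 2.11.

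**Figure D1:**
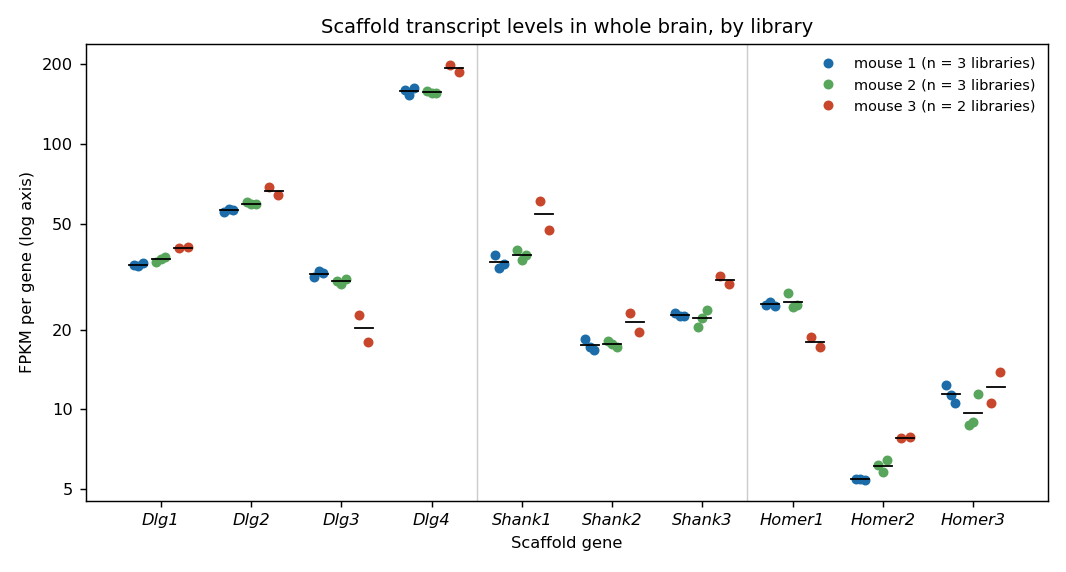
FPKM of the 10 scaffold genes (log axis) in each library, with points for single libraries coloured by mouse and a black line at the mean of each mouse (3, 3 and 2 libraries). Dlg4 lies highest, between 153 and 199 FPKM, and the 2 libraries of mouse 3 lie below the others for Dlg3 and Homer1.

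The order of levels was firm at some steps only. Dlg4 stood 2.78-fold above Dlg2, and the mouse means did not overlap between Dlg4 and Dlg2, Dlg2 and Shank1, Dlg1 and Dlg3, Shank2 and Homer3, or Homer3 and Homer2. Mouse means overlapped between the neighbours Shank1 and Dlg1, Dlg3 and Shank3, Shank3 and Homer1, and Homer1 and Shank2. Within libraries, the gene with the higher mean was the higher in 5, 6, 2 and 6 of 8 for these pairs. Dlg3 stood above Shank3, and Homer1 above Shank3 and Shank2, in each library of mice 1 and 2. Those orders were reversed in both libraries of mouse 3. The Shank3 mean was 1.11-fold above that of Homer1 although Shank3 was higher in mouse 3 only. The per-length values rest on the transcript models of the deposited table, which are 10966 bases long for the main Homer2 transcript and 2136 bases for the short Homer1 transcript.

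Dlg4 lies on chromosome 11 (70018605 to 70045531, mm10) and its product holds AMPA receptor complexes, through stargazin-type subunits, and NMDA receptors at the synapse. It stood at 160, 153 and 163 FPKM in the libraries of mouse 1, 159, 156 and 156 in mouse 2, and 199 and 187 in mouse 3. Both libraries of mouse 3 were above the other 6, and mice 1 and 2 overlapped. On the log2(FPKM + 1) scale, mouse 3 exceeded the average of the other mice by 0.29 (SE 0.071, limma moderated F-test over the 3 mice, adjusted p = 0.041). This call was lost in 7 of 8 fits that each left out a library, with adjusted p between 0.022 and 0.11.

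Dlg3 (chromosome X, 100767722 to 100818410) encodes SAP102, a scaffold abundant in young synapses. It stood at 31.5, 33.1 and 32.7 FPKM in mouse 1, 30.4, 29.6 and 31.1 in mouse 2, and 22.6 and 17.97 in mouse 3. The libraries of mouse 1 lay above those of mouse 2, but limma's contrast of these mice did not call the gene. Both libraries of mouse 3 lay below all others. The difference fell by 0.61 on the log2 scale (SE 0.087, F-test adjusted p = 0.0066), which is 35.4% in FPKM, and the adjusted p stayed at or under 0.040 without any single library.

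Dlg2 (chromosome 7, 91090786 to 92449246), which encodes PSD-93, stood at 55.7, 56.9 and 56.3 FPKM in mouse 1, 60.2, 59.4 and 59.3 in mouse 2, and 69.1 and 64.4 in mouse 3. Dlg1 (chromosome 16, 31663443 to 31873356), which encodes SAP97, stood at 35.1, 34.7 and 35.5 FPKM in mouse 1, 36.0, 37.0 and 37.6 in mouse 2, and 40.5 and 40.9 in mouse 3. For both genes the 3 mice did not overlap and stood in the order mouse 1, mouse 2, mouse 3. The share of all genes with the 3 mice apart is not given, and limma's contrast of mice 2 and 1 called neither gene. The differences of mouse 3 from the others were 0.20 (SE 0.063) for Dlg2 and 0.17 (SE 0.060) for Dlg1 on the log2 scale. Over the 3 mice these genes missed the threshold (limma F-test adjusted p = 0.072 and 0.10), whereas limma's contrast of mouse 3 with the mean of the other mice, a test added after the data were seen that called 38.3% of all genes, gave adjusted p = 0.034 and 0.049. Dlg1 varied least among the 10, with a coefficient of variation of 7.58% between mice against a median of 12.3% over all genes tested.

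Shank1 (chromosome 7, 44310264 to 44358353) has a single transcript in the table and was higher in mouse 3. It stood at 38.2, 34.1 and 35.2 FPKM in mouse 1, 39.9, 36.7 and 38.1 in mouse 2, and 61.0 and 47.6 in mouse 3. Mouse 3 was 1.47-fold above the mean of the other mice in FPKM, a difference of 0.53 on the log2 scale (SE 0.098, F-test adjusted p = 0.014), and its 2 libraries were also the farthest apart of any mouse. The difference was 0.36 without library 1 of mouse 3 and 0.71 without library 2.

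Shank3 (chromosome 15, 89499857 to 89560260), the Shank gene lost in Phelan-McDermid syndrome, also has a single transcript here. It stood at 23.1, 22.4 and 22.5 FPKM in mouse 1, 20.4, 22.1 and 23.7 in mouse 2, and 31.9 and 29.7 in mouse 3. Mice 1 and 2 overlapped and mouse 3 stood apart above them, by 0.44 on the log2 scale (SE 0.074, F-test adjusted p = 0.010). Shank2 (chromosome 7, 144175520 to 144422675) stood at 18.5, 17.1 and 16.7 FPKM in mouse 1, 18.1, 17.6 and 17.2 in mouse 2, and 23.0 and 19.6 in mouse 3. The libraries of mouse 3 were again the highest, by 0.27 on the log2 scale (SE 0.079), with a limma adjusted p of 0.077 in the F-test over the 3 mice and of 0.028 in the contrast of mouse 3 with the other mice.

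Homer1 (chromosome 13, 93304495 to 93405129) stood at 24.7, 25.4 and 24.5 FPKM in mouse 1, 27.4, 24.3 and 24.8 in mouse 2, and 18.7 and 17.2 in mouse 3. Like Dlg3, it was lower in both libraries of mouse 3 than in any other library, while mice 1 and 2 overlapped. Homer1 fell by 0.47 on the log2 scale in mouse 3 (SE 0.072, F-test adjusted p = 0.0081), or by 28.9% in FPKM.

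Homer2 (chromosome 7, 81600481 to 81706925), the lowest member, moved the other way. It stood at 5.49, 5.45 and 5.42 FPKM in mouse 1, 6.18, 5.79 and 6.43 in mouse 2, and 7.79 and 7.88 in mouse 3. The 3 mice did not overlap, again with no share of all genes to set beside this, and limma's contrast of mice 2 and 1 did not call Homer2. Mouse 3 was higher by 0.38 on the log2 scale (SE 0.069, F-test adjusted p = 0.011). Homer3 (chromosome 8, 70282999 to 70294361), the Homer gene best known from Purkinje cells, stood at 12.3, 11.4 and 10.6 FPKM in mouse 1, 8.75, 8.95 and 11.4 in mouse 2, and 10.6 and 13.8 in mouse 3. Its libraries overlapped between all mice, and the difference of 0.19 (SE 0.12) was not called (F-test adjusted p = 0.23). It rested on library 2 of mouse 3, without which it was 0.0099, and it was 0.36 without library 1 of that mouse. Homer3, whose main transcript is 2445 bases long, shares 874 exonic bases with Ddx49, a gene on the opposite strand at 11.5 ± 0.93 FPKM (SD, n = 3 mice). Because strand use in the quantification is not given in the sources used here, reads within the shared bases cannot be told apart.

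In all, 6 of the 10 scaffold genes differed between the mice (limma moderated F-test, adjusted p under 0.05), against 26.9% of all 13001 genes tested. Dlg4, Shank1, Shank3 and Homer2 were higher in mouse 3, against a background of 15.0% of all genes, and Dlg3 and Homer1 were lower, against 11.9%. Both libraries of mouse 3 lay above the other 6 for 7 members (26.5% of all genes) and below them for 2 (21.7%). None of the 10 differed between mice 2 and 1 in limma's contrast, where 1 of 13001 genes (0.00769%) was called higher in mouse 2 and 0 lower. Against mouse 1, mouse 3 was higher for 7 members (15.2% of all genes) and lower for Dlg3 and Homer1 (15.3%). Against mouse 2, it was higher for Dlg4, Shank1, Shank3 and Homer2 (19.7%) and lower for the same 2 genes (13.3%), and both contrasts use the libraries of mouse 3.

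The number of members called changed without library 2 of mouse 3 and with the scaling of the libraries. Without that library, 2 members were called, Dlg3 (adjusted p = 0.040) and Shank1 (0.032), against 2.86% of 12998 genes, while the adjusted p of Shank3, Homer1 and Homer2 became 0.058, 0.070 and 0.068. When each library was scaled to the same sum (TPM), the median of all genes in mouse 3 shifted to -0.26 on the log2 scale from 0.02, and among the genes called the share that was higher in mouse 3 changed from 55.9% to 14.9%. Only Dlg3 (fell by 0.92, adjusted p = 0.0012) and Homer1 (fell by 0.78, adjusted p = 0.0016) were then called among the members, against 44.0% of all genes. Relative to that shifted median, the 8 other members still lay 0.13 to 0.50 above it and Dlg3 and Homer1 lay at -0.67 and -0.52. With the dependence on transcript length removed, all members except Homer3 were called, against 22.2% of all genes, in the directions given above.

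**Figure D2:**
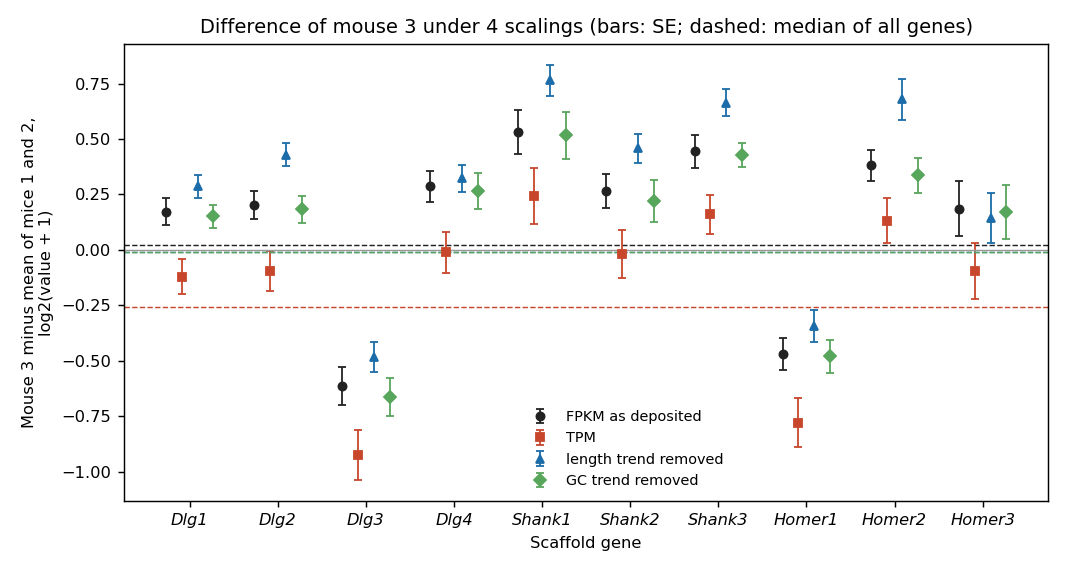
Difference of mouse 3 from the mean of mice 1 and 2 on the log2(value + 1) scale (y axis) for each scaffold gene (x axis) under 4 scalings, with bars of 1 SE from limma and dashed lines at the median of all genes tested. Dlg3 and Homer1 are below 0 under each of the 4, and under TPM Dlg1, Dlg2, Dlg4, Shank2 and Homer3 also lie below 0, as does the median of all genes at -0.26.

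A member's share of its family's summed FPKM does not depend on a single factor that scales all genes of a library. It can depend on a trend with transcript length, since members differ in length. Mouse 3 differed by 0.29 for Dlg4 and 0.20 for Dlg2 as deposited, and by 0.32 and 0.43 with the length trend removed. For Homer1, Homer2 and Homer3 the differences were -0.47, 0.38 and 0.19 as deposited, and -0.34, 0.68 and 0.14 with that trend removed. The part of that trend in the shares was not tested. In FPKM as deposited, mouse 3 differed in its Homer1 and Homer2 shares. Homer1 held 59.6%, 61.7% and 47.3% of the Homer sum in mice 1, 2 and 3, and Homer2 held 13.1%, 14.8% and 20.7%. In single libraries the Homer2 share was 12.9 to 15.1% in mice 1 and 2 and 21.0 and 20.3% in mouse 3. The exact permutation test over the 280 groupings of the 8 libraries by mouse gave p = 0.018 for Homer1, 0.032 for Homer3 and 0.0036 for Homer2, the last being the smallest p this test can give. These are unadjusted values, and 10 shares were tested. With a library left out there are fewer groupings, so the smallest p that the test can give is higher, 0.0095 without a library of mouse 1 or 2. A rise in p without a library, here and below, therefore does not by itself show that a share depended on that library. When each library was left out in turn, the exact permutation p of Homer2 was 0.014 or less, whereas that of Homer1 reached 0.095 without library 1 of mouse 2 and that of Homer3 0.27 without library 2 of mouse 3.

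In the Dlg family Dlg3 held 11.5%, 10.7% and 6.31% in mice 1, 2 and 3 (exact permutation p = 0.0036), and Dlg4 56.1%, 55.3% and 60.2% (exact permutation p = 0.011). Dlg2 held 19.9%, 21.0% and 20.8% (exact permutation p = 0.046) and Dlg1 12.4%, 13.0% and 12.7% (exact permutation p = 0.31). The Dlg3 share in mouse 3, 6.83 and 5.80% in its libraries, stood apart from the 10.5 to 11.9% of the others. In the Shank family Shank1 was at 47.1%, 49.1% and 50.9% (exact permutation p = 0.096), Shank3 at 29.9%, 28.3% and 29.1% (exact permutation p = 0.56) and Shank2 at 23.0%, 22.6% and 20.1% (exact permutation p = 0.018). Left without a single library, the exact permutation p of Dlg3 was 0.019 or less, that of Dlg4 reached 0.057 without library 1 or 3 of mouse 1, that of Dlg2 0.11 without library 1 or 2 of mouse 2, and that of Shank2 0.095 without library 3 of mouse 2.

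**Figure D3:**
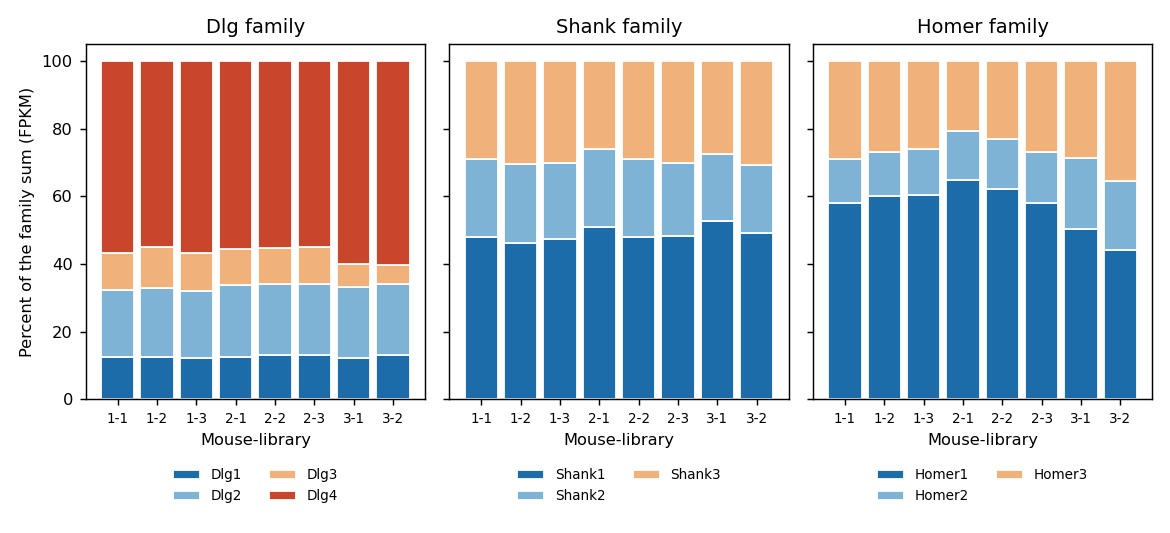
Each member's percent of the summed FPKM of its family (stacked bars, y axis) in the 8 libraries (x axis, mouse and library number). The Dlg3 segment narrows to 6.83 and 5.80% in the libraries of mouse 3, and the Homer2 segment widens to 21.0 and 20.3%.

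The Homer1 transcripts encode long and short proteins. The long form NM_147176, with 366 codons, stood at 17.5 ± 3.59 FPKM and made up 76.8 ± 4.34% of Homer1 (SD, n = 3 mice), and NM_001284189, which lacks the exon of 36 bases, made up 7.02 ± 2.79%. The short form NM_011982, with 186 codons and the Homer1a ending, stood at 3.66, 3.94 and 3.00 FPKM in mouse 1, 5.50, 4.70 and 4.70 in mouse 2, and 3.10 and 2.30 in mouse 3. It was highest in the libraries of mouse 2, while those of mice 1 and 3 overlapped. Its share of Homer1 was 14.8, 15.5 and 12.2% in mouse 1, 20.1, 19.4 and 19.0% in mouse 2, and 16.6 and 13.4% in mouse 3 (exact permutation p = 0.029, and 0.095 without library 1 of mouse 2). Of all 10528 transcripts, 6.16% had an exact permutation p under 0.05. Adjustment over all of them called 0.00% (adjusted p = 0.70 for the short form), but a call at the smallest p of 0.0036 asks for more than 752 transcripts at that p, and 60 had it, so the adjusted values do not show that shares were alike. The authors' estimates of single transcripts divide reads over shared exons, and the deposited bounds on the short form were 2.72 to 4.61 FPKM in library 1 of mouse 1 and 4.26 to 6.73 in library 1 of mouse 2.

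Activity-regulated genes were read beside the short form, since Homer1a is one. Of 7, Fosb and Npas4 were under the minimum of 1 FPKM, and 2 of the 5 tested were lower in mouse 3, where 11.9% of all genes were (Egr1, fell by 0.82, limma F-test adjusted p = 0.0032, and Junb, fell by 0.39, adjusted p = 0.039). Egr1, an activity-induced zinc-finger factor, was the highest of them at 20.3 ± 6.26 FPKM (SD, n = 3 mice). Arc, whose product acts in receptor endocytosis, stood at 9.79, 8.97 and 11.7 FPKM in mice 1, 2 and 3 and was not called (adjusted p = 0.15).

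Dlg4 was read mostly as NM_007864, at 147 ± 14.5 FPKM or 86.9 ± 2.74% of the gene. The share of NM_001109752, which lacks the 9 bases shown above, was 7.29, 10.9 and 12.1% in mouse 1, 12.6, 15.1 and 14.0% in mouse 2, and 13.8 and 17.0% in mouse 3. Mouse 1 was lowest and mice 2 and 3 overlapped (exact permutation p = 0.043, 0.20 without library 2 of mouse 3, adjusted p = 0.73 over all transcripts). For Dlg1 the share of the innermost start, NM_001252436, was 39.7, 35.2 and 39.3% in mouse 1, 39.3, 38.2 and 34.9% in mouse 2, and 29.5 and 30.3% in mouse 3. Both libraries of mouse 3 were below the other 6 (exact permutation p = 0.025, 0.14 without either library of mouse 3, adjusted p = 0.70).

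Homer2 was split between 2 transcripts from the same start. NM_011983, with the 33 bases shown above, made up 31.3, 35.7 and 39.4% of Homer2 in mouse 1, 43.6, 43.8 and 34.3% in mouse 2, and 28.5 and 18.5% in mouse 3. Mouse 3 was lowest (exact permutation p = 0.021, 0.17 without library 2 of mouse 3, adjusted p = 0.70). NM_001164086 made up the rest apart from NM_001164087, which starts at another position and held 0.82 ± 0.74%.

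For the other transcript shares the exact permutation p lay between 0.146 and 0.96. The Dlg2 transcript that starts outermost, NM_011807 with 852 codons, made up 75.3 ± 2.44% of Dlg2, and the transcript from the innermost start, NM_001243047, 22.0 ± 1.75%, at 13.3 ± 0.08 FPKM (exact permutation p = 0.46 and 0.61). The small SD of NM_001243047 is between mouse means only. Its single libraries ranged from 10.7 to 16.2 FPKM, with both ends in mouse 1. Dlg3 was divided between NM_001290402 (36.4 ± 2.17%), NM_016747 (34.7 ± 3.45%) and NM_001177780 (24.5 ± 1.99%). The longer Shank2 transcript, NM_001113373 with 1472 codons, held 61.0 ± 1.60% and NM_001081370 with 1262 codons the rest, yet single libraries of mouse 1 ranged from 48.2 to 66.7% (exact permutation p = 0.96). Homer3 was 98.4 ± 0.64% NM_001146153.

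**Figure D4:**
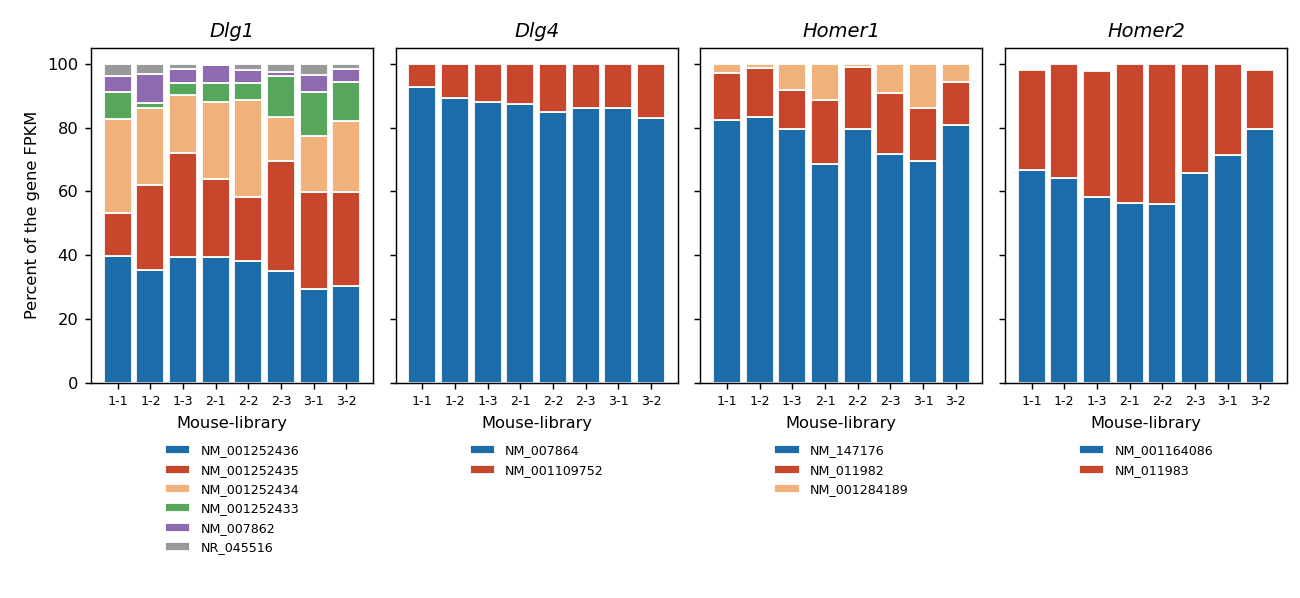
Percent of the gene's FPKM held by each transcript (stacked bars, y axis) of Dlg1, Dlg4, Homer1 and Homer2 in the 8 libraries (x axis, mouse and library number), with transcripts under a mean of 1% left out, so that some bars end short of 100%. The lowest segment of Dlg1, NM_001252436, is at 29.5 and 30.3% in mouse 3, and that of NM_011982 in Homer1 is at 19.0 to 20.1% in mouse 2.

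The proteins that the scaffolds bind were read from a list of 13 membrane proteins, and 7 of them were lower and 0 higher in mouse 3 by the limma F-test, against 11.9% and 15.0% of all genes. Their adjusted p-values, like those of the lists that follow, are over all genes tested. Their median difference was -0.39 on the log2 scale, against 0.23 for the 10 scaffolds and 0.02 for all genes tested. Itpr1, the inositol trisphosphate receptor bound by Homer, was the highest at 81.9 ± 5.95 FPKM (SD, n = 3 mice). Cacng2 (stargazin), the AMPA receptor subunit held by PSD-95, was the called gene with the widest range of mouse means on the log2 scale, at 26.5, 26.2 and 17.9 FPKM in mice 1, 2 and 3 (fell by 0.53, adjusted p = 0.010). The metabotropic receptor gene Grm5, whose product Homer binds, fell by 0.50 (adjusted p = 0.010). The NMDA receptor genes Grin2a, Grin2b, Grin2c and Grin2d were not called, with differences of -0.39, -0.63, 0.00 and -0.36.

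Among 16 postsynaptic density partners, 2 were higher and 6 lower in mouse 3, against 15.0% and 11.9% of all genes, with a median difference of -0.27. Dlgap1, the link between Dlg and Shank, was the highest at 82.1 ± 8.26 FPKM (SD, n = 3 mice) and was not called (adjusted p = 0.053), whereas its relative Dlgap3 stood at 46.0, 44.1 and 60.8 FPKM in mice 1, 2 and 3 (difference 0.42, adjusted p = 0.013). Baiap2 (IRSp53), an actin regulator that binds Shank and PSD-95, fell by 0.55 (SE 0.10, adjusted p = 0.013). Of 14 other membrane-associated guanylate kinases and Lin7 genes, 1 was higher and 4 were lower, against the same shares, with a median of -0.25. Lin7b was the highest of these at 27.5 ± 6.43 FPKM, and Mpp6 was the called gene with the widest range on that scale (difference 0.66, SE 0.11, adjusted p = 0.0099). Gphn (gephyrin), the scaffold of inhibitory synapses, stood at 21.5 ± 2.85 FPKM and fell by 0.33 (SE 0.083, adjusted p = 0.044).

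Cell type markers also differed in mouse 3, against 15.0% of all genes called higher there and 11.9% called lower. The 5 neuronal markers summed to 1634 to 1769 FPKM in the libraries of mice 1 and 2 and to 1409 and 1513 in mouse 3, with 2 of 5 called, both lower (Syt1 fell by 0.73). The 4 markers of cortical and hippocampal excitatory neurons were all lower, with sums of 57.6 to 67.3 and of 41.2 and 42.6 FPKM (Neurod6 highest at 19.0 FPKM). Striatal markers summed to 148 to 177 and to 128 and 145 FPKM, with 2 of 5 lower (Ppp1r1b highest at 89.7 FPKM, Rgs9 falling by 0.73). Among 4 cerebellar granule cell markers tested, 2 were lower (Cbln3 highest at 40.2 FPKM, Neurod1 falling by 0.54), with sums of 122 to 130 and of 106 and 139 FPKM. None of the 4 Purkinje cell markers was called (Pcp2 highest at 106 FPKM), and their sums of 193 to 226 and of 205 and 329 FPKM overlapped.

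All 4 astrocyte markers were higher in mouse 3, against 15.0% of all genes called higher and 11.9% called lower. They summed to 190 to 205 FPKM in the libraries of mice 1 and 2 and to 294 and 330 in mouse 3 (Gfap difference 1.03). Where only 1 marker of a list was called, the count is near these shares and is not read as a result about that cell type. The 4 oligodendrocyte markers summed to 1902 to 2100 and to 3676 and 4561 FPKM, with 1 called (Mbp, difference 1.27), and the 4 microglial markers to 44.2 to 49.9 and to 51.5 and 52.5 FPKM, with 1 called (Cx3cr1, difference 0.35). Blood genes summed to 530 to 659 and to 801 and 897 FPKM, with 1 of 5 called (Hbb-bt, difference 1.14, a globin gene with near-identical copies that can share reads, and Hba-a1 highest at 464 FPKM). Choroid plexus genes overlapped between the mice, with 1 of 5 lower (Kl, fell by 0.68, and Ttr highest at 472 FPKM). Of 5 pituitary genes only Pomc passed the minimum, at 1.58 FPKM, and it was not called. No marker was at 0 in all libraries. The part of these cell type markers in the scaffold differences was not tested.

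**Figure D5:**
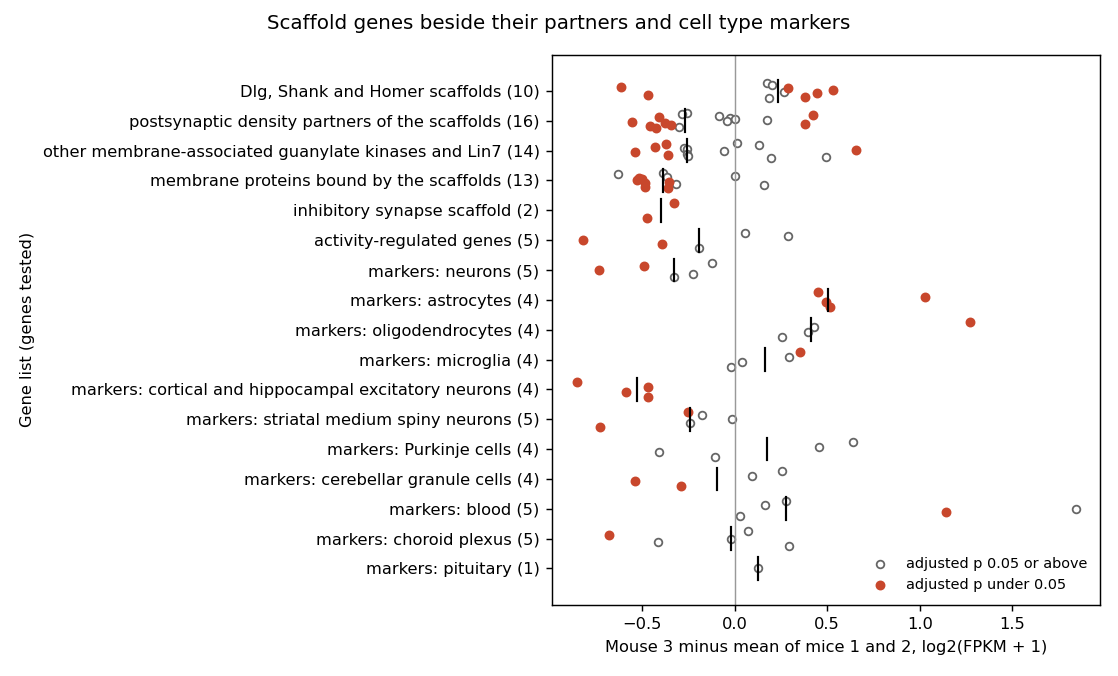
Difference of mouse 3 from the mean of mice 1 and 2 on the log2(FPKM + 1) scale (x axis) for single genes (points) of each list (y axis, number of genes tested), filled where the limma F-test over the 3 mice gave an adjusted p under 0.05, with a black line at the list median. The scaffold median is 0.23, that of the membrane proteins they bind -0.39, and the 4 astrocyte markers all lie above 0.

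For each scaffold gene, the gene with the most similar profile was the one whose log2(FPKM + 1) deviations over the 8 libraries had the smallest root-mean-square difference. Dlg3 was nearest to Gda, which encodes guanine deaminase (0.032 on the log2 scale), Homer1 to Camta1 (0.025), Shank3 to Map3k10 (0.020), Dlg4 to Epb4.1l2 (0.026) and Dlg1 to Fam210b (0.021). The others were nearest to 9430020K01Rik (Dlg2, 0.028), Snx33 (Shank2, 0.042), Prex2 (Shank1, 0.044), Rhobtb3 (Homer2, 0.049) and Cav1 (Homer3, 0.057). No scaffold gene had another scaffold gene as its nearest. Dlg1 and Dlg2 were the closest pair of members, at 0.040, with 11 other genes nearer to Dlg1 and 10 nearer to Dlg2.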

How the data were processed

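The 8 libraries were made from total RNA with a Kapa mRNA kit. The authors deposited FPKM per RefSeq transcript with confidence bounds, and coverage, the read depth per base, as an unscaled signal. The submitters' processing notes name TopHat, Cufflinks and mm10, with no versions given in the sources used here. FPKM of a gene's transcripts was summed. The number of reads is unknown, so no counting interval was computed, and the depth was taken as coverage multiplied by length. Differences between mice were tested with limma 3.58.1 (R 4.3.3, moderated F-test with trend) on log2(FPKM + 1) in the 13001 genes whose mean reached 1 FPKM, and p-values were adjusted by Benjamini-Hochberg over all of these, with a threshold of 0.05. The p-values compare these mice and measure only the spread between libraries, which may be technical. Shares were compared by an exact permutation test over 280 groupings. An adjustment over the members alone had been laid out and was replaced by unadjusted values (family shares) or by adjustment over all transcripts. Both tests were tested on simulated data. Alternatives were another pseudocount, no filter, TPM, median-ratio scaling, removal of lowess trends on length, GC or both, the highest transcript of each gene, no trend in limma, a replicate block and leaving out each library. The members, gene lists and tests were chosen with earlier results of these data known. Of each list, the gene highest in FPKM and the called gene with the widest range of mouse means on the log2 scale were named by rule, with all members and the nearest gene to each, and some genes that the rule names are not reported here. Dlgap3, Grm5, Gphn, the Grin2 genes, Junb, Arc and the genes under the minimum were named after their values were seen, as were the transcripts with sequences shown. Coordinates are those of the deposited table (mm10). Sequences come from GENCODE vM21 (GRCm38) and, for the bases before starts, from RefSeq (GRCm38.p6), where 8 of 10 members have an entry. Trends on GC and the contrast of mouse 3 with the mean of the others were added after seeing the data.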

Additional observations from a re-analysis of the deposited data

Results flagged for a closer look

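Among 45 measures of the scaffold genes (levels, family shares and transcript shares), 1 had a library set apart from the other 7, a level that chance gives in about 1 of 20 groups. At that rate, 1 case among 45 measures is not more than chance would give, and it is not read as a result about the gene. Shank2 stood at 23.0 FPKM in library 1 of mouse 3, against 16.7 to 19.6 FPKM in the other libraries. The gap to the next library was 0.534 of the whole range. The other library of mouse 3 was the next highest.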

How the results depend on the processing

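The number of genes that differed between the mice was 3496, and 5726 with TPM and 372 to 4131 when a library was left out (1969 to 2215 without a library of mouse 1, 372 without library 2 of mouse 3). Of the 10 scaffold genes 6 were called, 2 with TPM and 2 to 7 when a library was left out. The contrast of mouse 3 with the mean of mice 1 and 2, added after seeing the data, called 9 of the 10 and 4979 of all genes. Of calls of members between pairs of mice there were 15, 4 with TPM and 9 to 15 without a library of mouse 1 or 2, the lowest without library 2 of mouse 2. The shares of all genes called between pairs are not given for these alternatives or for the replicate block below. These counts are therefore not read as a result about the members. The difference of mouse 3 was reversed with TPM for Dlg1 (-0.12), Dlg2 (-0.094), Dlg4 (-0.011), Shank2 (-0.020) and Homer3 (-0.094), and with the highest transcript in place of the sum for Dlg1 (-0.15). TPM sets each library to the same sum by construction. Dlg3 was called in 17 of 18 alternatives, as were Homer1 and Shank1, Homer2 and Shank3 in 16, and Dlg4 in 6. The transcript shares of a gene, and the member shares of a family, add up to the whole, so they are not independent. Transcript shares with an exact permutation p under 0.05 numbered 6 of 25, against 6.16% of all 10528 transcripts, and 0 to 5 when a library was left out. The 6 included both Dlg4 shares (exact permutation p = 0.043 for each) and the shares of Homer2 transcripts NM_001164086 and NM_011983 (0.032 and 0.021). Family shares with an exact permutation p under 0.05 numbered 7 of 10, with no background to set beside them, and 4 to 6 when a library was left out. The cause was not tested. The replicate numbers were not taken as pairing the samples. The 7 same-numbered pairs correlated at 0.0028 to 0.11, only 1 of them over 0.1, and the other pairs at -0.135 to 0.065. Such low values cannot show whether the numbers pair the samples. With a replicate block, 3385 genes (66.3% of them higher in mouse 3), 6 members and 13 calls between pairs were past the threshold, with 1 transcript share and 4 family shares. Depth per gene is unknown from FPKM, and with 3 mice of a single condition and 2 libraries of mouse 3, differences under the spread between libraries were not detectable.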
